A study of Mus musculus with 11 samples.

Results

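The response described here is that of 2 Ung knockout clones of B16F10, a mouse melanoma line, to inhibition of the kinase ATR. The labels name them ΔUNG and ΔUNG_2, and each line is 1 clone, so a feature of 1 clone and an effect of the knockout cannot be told apart. Cells of each clone had received for 48 h either the solvent DMSO or ATRi, which is AZD6738 at 5 µM. The comparison took 7 of the 11 libraries: 2 of ΔUNG with DMSO, 2 of ΔUNG with ATRi, 2 of ΔUNG_2 with DMSO and 1 of ΔUNG_2 with ATRi. The other 4 libraries came from a Cas9 control line without the knockout, with 2 per treatment, and were used only where a response is set beside that of the control. Of 14528 listed genes, 11312 were tested, those whose mean over the 7 libraries reached 0.5 FPKM. FPKM give the fragments of a gene relative to its length and to the depth of the library. At that limit, Carmil1 was just inside, with a mean of 0.5, and D10Wsu102e just outside, with 0.49982.

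ATR is the apical kinase of the replication stress checkpoint. It is recruited to single-stranded DNA at stalled forks and signals through CHK1 to slow origin firing, stabilise forks and hold cells out of mitosis. UNG is the glycosylase that starts base excision repair of uracil in DNA. Cells whose ATR is inhibited enter mitosis with under-replicated DNA, and DNA that reaches the cytosol can be sensed by cGAS and STING, which induce type I interferon genes.

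The libraries of the clones held 45692790 to 63304616 clean reads, and 17014697 to 23364134 fragments lay behind the FPKM values. The Cas9 control ATRi libraries were deeper, with 74973328 and 74054210 clean reads. Replicates of the clones differed by more than counting noise (chi-square over its degrees of freedom between 5.02 and 13.7). In the Cas9 control this value was 5.48 under DMSO and 32.1 under ATRi. Each library was therefore counted as its own sample. Their titles name biological replicates without saying if cultures were grown apart, and p-values therefore reflect the spread among the libraries at hand. In a principal component analysis the first component held 69.1% of the variance. It placed the 3 ATRi libraries between 27.45 and 31.82 and the 4 DMSO libraries between -23.6 and -19.29. The 57-base gene Gm23935 took 17.1% to 26.3% of all FPKM in the clones, and 10.3% and 25.9% in the Cas9 control ATRi libraries. All 8 melanocyte markers were present, with a summed level of 7640 to 8784 FPKM under DMSO and 8660 to 9642 under ATRi. Of 12 leukocyte markers 1, Cd68, was among the listed genes. So were 6 of 12 markers of fibroblasts, endothelium and epithelium, which summed to at most 1.33 FPKM in any library. In bulk RNA, fewer cells of a kind and less RNA per cell cannot be told apart, which holds for every level given here.

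Ung had 1.39 and 0.774 FPKM in the ΔUNG DMSO libraries, 2.01 and 1.78 in ΔUNG_2 DMSO, 1.27 and 0.675 in ΔUNG ATRi and 1.74 in ΔUNG_2 ATRi. The treatments overlapped in ΔUNG, the single ΔUNG_2 ATRi library lay just below both ΔUNG_2 DMSO libraries, and the log2 fold change was -0.10 ± 0.19 (SE), adjusted p = 0.685. Ung lies on chromosome 5 from 114130386 to 114139323 in the deposited table. RNA does not measure the protein and is no check of the deletion. Atr had 1.69 and 1.88 FPKM in the ΔUNG DMSO libraries, 1.8 and 1.81 in ΔUNG_2 DMSO, 1.34 and 1.60 in ΔUNG ATRi and 1.11 in ΔUNG_2 ATRi. Each ATRi library lay below each DMSO library, and the log2 fold change of Atr was -0.33 ± 0.12 (SE), adjusted p = 0.0470. That call was lost without each of 5 libraries (all but ΔUNG DMSO replicate 1 and ΔUNG ATRi replicate 2), where adjusted p reached 0.276, and under 5 other settings.

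Promoters of 5 genes are shown, 1 for each of 5 gene groups that a known factor controls, since most tested genes of each group were called in the clones. Each is the group's member with the smallest adjusted p among those that hold the group's motif, and runs from 250 bases before to 50 bases after the gene's start (RefSeq, GRCm38.p6), 5′ to 3′ on the gene's strand, with the motif in capitals. Hspa5 (chr2:34771840-34772139, plus strand) holds the ER stress element, which is CCAAT, 9 free bases and CCACG, 65 bases before the start. Ifit3 (chr19:34583279-34583578, plus strand) holds 2 copies of the core of the interferon-stimulated response element, GAAA, 2 free bases and GAAA, both on the other strand. Kif11 (chr19:37376132-37376431, plus strand) holds the cell cycle homology region TTTGAA on the other strand, 19 bases before the start. Nupr1 (chr7:126625421-126625720, minus strand) holds the element TGATGCAA of CHOP and ATF4 on the other strand, 110 bases before the start. Rfc4 (chr16:23127681-23127980, minus strand) holds the E2F site TTCCCGC on the other strand, just after the start.
Hspa5: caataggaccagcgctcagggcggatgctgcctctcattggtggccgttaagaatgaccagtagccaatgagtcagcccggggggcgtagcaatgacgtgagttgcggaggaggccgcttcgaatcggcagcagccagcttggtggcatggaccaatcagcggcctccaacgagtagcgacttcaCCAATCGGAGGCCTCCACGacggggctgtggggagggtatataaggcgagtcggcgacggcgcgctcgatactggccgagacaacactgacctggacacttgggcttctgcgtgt
Ifit3: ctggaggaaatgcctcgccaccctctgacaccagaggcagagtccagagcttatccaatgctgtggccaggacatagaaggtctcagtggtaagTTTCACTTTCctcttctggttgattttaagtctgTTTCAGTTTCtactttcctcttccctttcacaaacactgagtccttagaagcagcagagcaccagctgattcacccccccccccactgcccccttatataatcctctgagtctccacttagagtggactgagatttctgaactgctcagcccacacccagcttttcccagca
Kif11: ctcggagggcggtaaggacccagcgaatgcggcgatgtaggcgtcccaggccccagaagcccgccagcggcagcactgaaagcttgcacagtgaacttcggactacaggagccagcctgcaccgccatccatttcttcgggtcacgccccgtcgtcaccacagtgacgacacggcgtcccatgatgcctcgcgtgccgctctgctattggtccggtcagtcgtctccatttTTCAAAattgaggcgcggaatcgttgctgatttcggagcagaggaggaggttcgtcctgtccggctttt
Nupr1: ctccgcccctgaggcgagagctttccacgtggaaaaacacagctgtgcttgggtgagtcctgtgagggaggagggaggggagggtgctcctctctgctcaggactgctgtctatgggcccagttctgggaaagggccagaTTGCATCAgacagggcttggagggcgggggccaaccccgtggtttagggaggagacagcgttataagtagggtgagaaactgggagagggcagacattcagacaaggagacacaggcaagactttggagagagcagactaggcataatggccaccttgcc
Rfc4: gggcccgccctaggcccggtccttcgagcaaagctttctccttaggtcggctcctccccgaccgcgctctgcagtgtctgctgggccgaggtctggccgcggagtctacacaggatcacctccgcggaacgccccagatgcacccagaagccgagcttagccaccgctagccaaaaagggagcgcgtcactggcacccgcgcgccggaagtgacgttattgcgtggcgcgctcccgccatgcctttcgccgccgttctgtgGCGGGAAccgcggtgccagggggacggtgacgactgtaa

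Both strands of every promoter were searched, and a promoter counts once however many matches it holds. A gene counts once if any of its promoters held a match. Among the tested members that have a promoter in the RefSeq table, 8 of 18 ER chaperone genes (44.4%) held the ER stress element. It was in 0.119% of all 32851 promoters and in 0.216% of the 8342 tested genes with a promoter. The interferon element core was in 13 of 27 interferon-stimulated genes (48.1%), against 3.44% of all promoters and 3.5% of these tested genes. For the cell cycle homology region, TTTGAA or its variant TTCGAA, the values were 26 of 36 mitotic genes (72.2%), 19.2% and 15.9%. TGATGCAA was in 6 of 23 integrated stress response genes (26.1%), in 0.895% of all promoters and in 0.707% of the tested genes. TTCCCGC or TTGGCGC was in 23 of 41 replication genes (56.1%), in 6.81% of all promoters and in 14.7% of the tested genes. These matches describe the sequence only and do not show that a factor was bound. Known factors control these groups, so a high share among members does not bear on the response to ATRi.

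ATRi changed close to every other tested gene. By limma, with the clone as a block, 5160 of 11312 genes passed an adjusted p of 0.05 (45.6%), of which 2456 were higher (21.7%) and 2704 lower (23.9%). Most changes were small: the median size among called genes was 0.46 on the log2 scale, and 310 rose and 294 fell by at least 1 on that scale. The 3 ATRi libraries lay wholly above the 4 DMSO libraries for 2612 genes (23.1%) and wholly below for 2884 (25.5%). Counts of members below are read against these shares. The median over all tested genes was -0.02. The total was 3845 to 5157 when each library was left out in turn, lowest without the single ΔUNG_2 ATRi library, and 590 when genes were tested against a fold of 1.5.

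The 10 largest rises and 10 largest falls were picked among called genes whose treatments did not overlap, so that separation is no finding. Among the 10 largest rises, 2 were transcripts with no gene symbol and are not named. Others were Egr1, Btg2, Csn3, Lif, Cpz, Tmem179 and Fos. Egr1 had 1.02 and 0.485 FPKM in the ΔUNG DMSO libraries, 0.592 and 0.552 in ΔUNG_2 DMSO, 11.6 and 15.0 in ΔUNG ATRi and 15.1 in ΔUNG_2 ATRi. Egr1 is an immediate early transcription factor, and its 3 ATRi libraries lay far above all 4 DMSO libraries. Its log2 fold change was 3.64 ± 0.17 (SE), adjusted p = 4.71e-06, which is 12.4-fold. Btg2 had 3.02 and 2.25 FPKM in the ΔUNG DMSO libraries, 2.45 and 3.08 in ΔUNG_2 DMSO, 22.1 and 23.2 in ΔUNG ATRi and 28.2 in ΔUNG_2 ATRi. Btg2, an antiproliferative target of p53, did not overlap between treatments either, with 2.99 ± 0.11 (SE), adjusted p = 1.79e-06. Csn3, the gene of kappa-casein, had 0.0206 to 0.156 FPKM in the DMSO libraries and 2.63 to 6.16 in the ATRi libraries, with a log2 fold change of 2.93 ± 0.19 (SE). Lif, a cytokine of the interleukin 6 family, had 0.0619 to 0.419 FPKM in the DMSO libraries and 4.30 to 6.22 in the ATRi libraries and rose by 2.88. Cpz, the gene of carboxypeptidase Z, rose by 2.69, Tmem179 by 2.57 and the AP-1 subunit gene Fos by 2.56.

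The 10 largest falls were in Nupr1, Car9, G0s2, Aire, Slc16a3, Il17b, Mgarp, Kbtbd11, Trib3 and Platr16. Under DMSO Nupr1 was at 39.9 and 34.6 FPKM in ΔUNG and at 34 and 35.9 in ΔUNG_2, and under ATRi at 4.41 and 4.08 in ΔUNG and at 4.69 in ΔUNG_2. Nupr1 is a stress-induced transcriptional regulator; the treatments lay far apart and both clones were alike, with a log2 fold change of -2.90 ± 0.08 (SE), adjusted p = 5.17e-07. Under DMSO Car9 was at 17.6 and 12.1 FPKM in ΔUNG and at 10.3 and 8.39 in ΔUNG_2, and under ATRi at 2.08 and 1.88 in ΔUNG and at 1.00 in ΔUNG_2. Car9, the hypoxia-induced carbonic anhydrase IX, fell to its lowest level in the ΔUNG_2 ATRi library, with -2.65 ± 0.13 (SE), adjusted p = 4.71e-06. G0s2, which inhibits the lipase that opens fat droplets, had 4.45 to 4.82 FPKM in the DMSO libraries and 0.170 to 0.576 in the ATRi libraries and fell by 2.54 on the log2 scale. Aire, known as a regulator of self-antigen expression in the thymus, had 3.26 to 3.67 FPKM in the DMSO libraries and 0.0525 to 0.345 in the ATRi libraries and fell by 2.52. Slc16a3, the lactate exporter MCT4, had 17.4 to 27.8 FPKM in the DMSO libraries and 1.94 to 6.0 in the ATRi libraries and fell by 2.41. The cytokine gene Il17b fell by 2.14, Mgarp by 1.98, Kbtbd11 by 1.94, the pseudokinase gene Trib3 by 1.92 and the noncoding RNA Platr16 by 1.91. Platr16 had the largest SE of the 10, with 0.670 and 0.343 FPKM in ΔUNG ATRi and 0 in ΔUNG_2 ATRi.

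**Figure D1:**
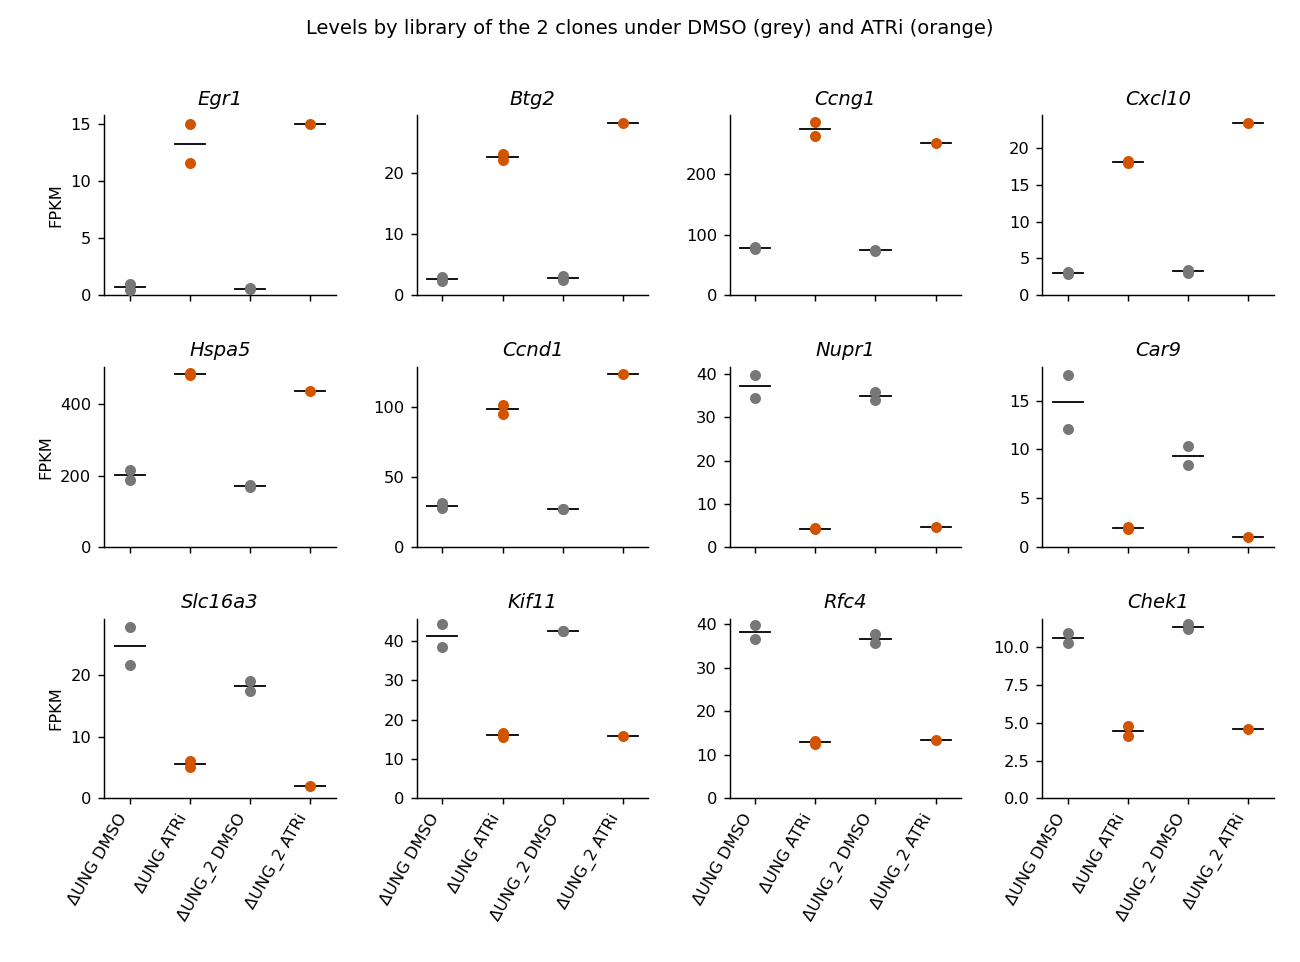
FPKM of 12 genes by library (points; bars are group means), DMSO in grey and ATRi in orange, with linear axes from 0. The ATRi points lie above all DMSO points for Egr1, Btg2, Ccng1, Cxcl10, Hspa5 and Ccnd1 and below them for Nupr1, Car9, Slc16a3, Kif11, Rfc4 and Chek1, and the ΔUNG_2 ATRi group has 1 point.

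Targets of p53 rose and none fell. Of 34 tested, 26 rose, and 26 did not overlap between treatments; the median was 0.73, with 0.69 in ΔUNG and 0.88 in ΔUNG_2. All 8 tested genes of cell death rose, with a median of 1.19, and so did 6 of 7 genes of cell cycle arrest (0.74) and 5 of 6 of p53 feedback (0.90). Of 9 genes of metabolism and oxidant defence 5 rose (0.30), and of 4 of DNA repair 2 rose (0.42). Dcxr had 13.5 and 12.3 FPKM in the ΔUNG DMSO libraries, 14 and 13.5 in ΔUNG_2 DMSO, 69.6 and 70.5 in ΔUNG ATRi and 86.4 in ΔUNG_2 ATRi. Dcxr, the gene of dicarbonyl and L-xylulose reductase, was higher under ATRi without overlap, by 2.48 ± 0.07 (SE), adjusted p = 5.17e-07. Under DMSO Ccng1 was at 75.6 and 79.3 FPKM in ΔUNG and at 75.2 and 73.2 in ΔUNG_2, and under ATRi at 264 and 287 in ΔUNG and at 252 in ΔUNG_2. Ccng1 encodes cyclin G1, a feedback target of p53, and its lowest ATRi value was far above its highest DMSO value, with 1.8 ± 0.06 (SE), adjusted p = 8.51e-07. Mdm2 had 23.9 and 25.2 FPKM in the ΔUNG DMSO libraries, 24.2 and 24.4 in ΔUNG_2 DMSO, 61.3 and 66.6 in ΔUNG ATRi and 64.7 in ΔUNG_2 ATRi. Mdm2, the ubiquitin ligase that removes p53, rose by 1.37 ± 0.06 (SE), adjusted p = 2.81e-06. Named after their values were seen, the p21 gene Cdkn1a rose by 2.01, Phlda3, an inhibitor of AKT, by 1.68 and Bbc3, the death gene PUMA, by 1.56.

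**Figure D2:**
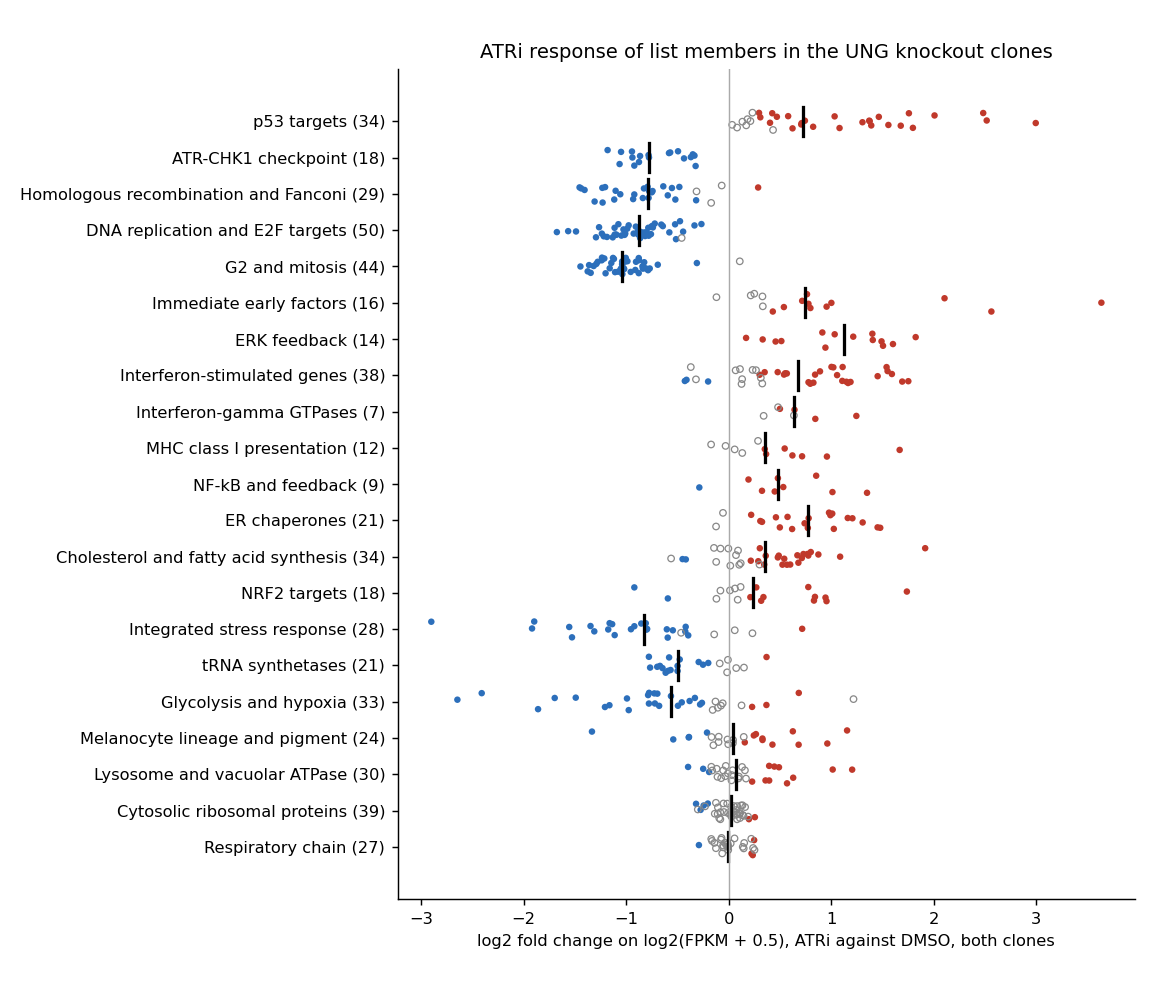
Log2 fold change of each tested member of 21 gene lists, ATRi against DMSO in both clones, with the number tested in brackets (red rose, blue fell, open grey did not pass an adjusted p of 0.05; bars are medians). Replication, checkpoint, repair and mitosis genes lie left of 0, ERK feedback, p53 and ER chaperone genes right of 0, and ribosomal and respiratory genes around 0.

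The ATR pathway's own genes fell. Of 18 tested genes of the ATR and CHK1 checkpoint all 18 fell, with a median of -0.78, none overlapping between treatments. When each library was left out in turn, 16 to 18 fell. Chek1 had 10.3 and 11 FPKM in the ΔUNG DMSO libraries, 11.2 and 11.5 in ΔUNG_2 DMSO, 4.81 and 4.17 in ΔUNG ATRi and 4.62 in ΔUNG_2 ATRi. Chek1, the kinase that ATR activates, was lower in every ATRi library than in any DMSO library, with -1.18 ± 0.07 (SE), adjusted p = 9.53e-06. The CDK-activating phosphatase genes Cdc25b and Cdc25c fell by 1.06 and 1.05, and Topbp1, which activates ATR at forks, by 0.92. Of 29 genes of homologous recombination and the Fanconi pathway, 25 fell, with a median of -0.79. Rad51ap1, a gene of homologous recombination, had 12.6 to 13.8 FPKM in the DMSO libraries and 4.17 to 4.66 in the ATRi libraries and fell by 1.46 ± 0.07 (SE), adjusted p = 4.71e-06. Fancd2, the ubiquitinated core of the Fanconi pathway, fell by 1.44, the homologous recombination gene Rad51c by 1.31 and the helicase gene Brip1 by 1.23. Rad51d alone was called higher (0.29 ± 0.08 (SE), adjusted p = 0.0182); it was not called without ΔUNG ATRi replicate 1 or ΔUNG_2 ATRi replicate 1, with adjusted p up to 0.14.

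Base excision repair, the pathway that UNG opens, moved less. Of 19 tested genes, 7 fell and 1 rose, with a median of -0.16. Without ΔUNG ATRi replicate 1 the rises numbered 2. Lig1 had 40.8 and 45.2 FPKM in the ΔUNG DMSO libraries, 42.3 and 44.1 in ΔUNG_2 DMSO, 19.7 and 17.1 in ΔUNG ATRi and 21.8 in ΔUNG_2 ATRi. The DNA ligase gene Lig1 serves replication as well, and its treatment groups stood apart, with -1.11 ± 0.08 (SE), adjusted p = 1.62e-05. Neil3, a glycosylase of oxidised bases, had 3.13 to 4.56 FPKM in the DMSO libraries and 1.21 to 1.41 in the ATRi libraries and fell by 1.32. Parp2, a sensor of strand breaks, fell by 0.56. The alkyladenine glycosylase gene Mpg went the other way. Mpg had 1.64 and 1.64 FPKM in the ΔUNG DMSO libraries, 1.91 and 2.40 in ΔUNG_2 DMSO, 3.22 and 3.22 in ΔUNG ATRi and 3.85 in ΔUNG_2 ATRi. Its ATRi libraries lay above all DMSO libraries, with 0.77 ± 0.10 (SE), adjusted p = 0.000380.

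Of 50 tested genes of DNA replication and other E2F targets, 49 fell and none rose, with a median of -0.87. All 16 of origin licensing and the helicase fell (-0.87), as did 16 of 17 polymerase, clamp and ligase genes (-0.78), all 7 of nucleotide supply (-0.91) and all 10 regulators of the G1/S step (-0.89). Rfc4 had 36.7 and 39.9 FPKM in the ΔUNG DMSO libraries, 35.7 and 37.7 in ΔUNG_2 DMSO, 13.3 and 12.5 in ΔUNG ATRi and 13.3 in ΔUNG_2 ATRi. Rfc4, a subunit of the clamp loader whose promoter is shown above, separated the treatments completely, with -1.49 ± 0.06 (SE), adjusted p = 2.91e-06. Gins1, of the replicative helicase, had 16.8 to 18.4 FPKM in the DMSO libraries and 4.42 to 5.94 in the ATRi libraries and fell by 1.68, more than any other member. The thymidine kinase gene Tk1 fell by 1.26 and the helicase subunit gene Mcm2 by 1.10.

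Genes of G2 and mitosis fell in 43 of 44 cases, with a median of -1.04; 17 of 18 cyclins, kinases and anaphase regulators and all 26 genes of the spindle, kinetochore and cytokinesis fell. Under DMSO Kif11 was at 38.4 and 44.2 FPKM in ΔUNG and at 42.4 and 42.4 in ΔUNG_2, and under ATRi at 16.7 and 15.6 in ΔUNG and at 15.9 in ΔUNG_2. Kif11, the motor that pushes spindle poles apart, had no overlap between treatments and nearly the same values in both clones, with -1.35 ± 0.07 (SE), adjusted p = 4.71e-06. Ccna2 had 35 and 37.8 FPKM in the ΔUNG DMSO libraries, 37.1 and 37.2 in ΔUNG_2 DMSO, 14.4 and 12.7 in ΔUNG ATRi and 14.6 in ΔUNG_2 ATRi. Ccna2, the gene of cyclin A, did not overlap either, with -1.36 ± 0.07 (SE), adjusted p = 4.71e-06. Top2a, which decatenates chromosomes, fell by 1.24 and Nusap1, a spindle protein gene, by 1.02. The counts for replication and mitosis were 48 to 50 and 42 to 43 when each library was left out.

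Genes at the entry to the cycle were mixed. Of 12 tested G1 cyclins, kinases and inhibitors, 3 rose and 6 fell, with a median of -0.10. Ccnd1 had 30.9 and 27.5 FPKM in the ΔUNG DMSO libraries, 27.3 and 26.9 in ΔUNG_2 DMSO, 102 and 95.2 in ΔUNG ATRi and 124 in ΔUNG_2 ATRi. Ccnd1, the gene of cyclin D1, was the strongest riser, and its highest level was in the ΔUNG_2 ATRi library (1.91 ± 0.09 (SE), adjusted p = 4.71e-06). Ccnd2 rose by 0.53. Ccnd3 rose by 0.33, a call lost without the ΔUNG_2 ATRi library (adjusted p = 0.104). Rbl1, the gene of the pocket protein p107, had 14.7 to 17.2 FPKM in the DMSO libraries and 6.19 to 7.53 in the ATRi libraries and fell by 1.24; Cdkn2c, the gene of the CDK4 inhibitor p18, fell by 0.75.

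Transcripts of the growth factor and ERK pathway rose. All 14 genes of ERK feedback rose, with a median of 1.12 (1.04 in ΔUNG and 1.25 in ΔUNG_2), and each ATRi library lay above each DMSO library for all 14. Without a library in turn, 11 to 13 rose. Dusp6 had 34.2 and 28.7 FPKM in the ΔUNG DMSO libraries, 33.0 and 33.5 in ΔUNG_2 DMSO, 81.0 and 82.2 in ΔUNG ATRi and 92.7 in ΔUNG_2 ATRi. Dusp6, a phosphatase that inactivates ERK, did not overlap between treatments, with 1.41 ± 0.07 (SE), adjusted p = 4.71e-06. Spry2, an inhibitor of receptor signalling, rose by 1.51, Dusp10, a phosphatase of p38 and JNK, by 1.49 and Phlda1 by 0.91. Of 16 immediate early factors 11 rose and none fell, with a median of 0.74. Besides Egr1 and Fos, the AP-1 gene Junb rose by 2.11, with 4.93 to 7.71 FPKM in the DMSO libraries and 23.8 to 31.8 in the ATRi libraries, and Myc by 0.80 ± 0.05 (SE), adjusted p = 1.33e-05.

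Of 8 tested genes of the BCL2 family outside the p53 targets, 4 rose, with a median of 0.16, and 2 rose without ΔUNG DMSO replicate 2, ΔUNG_2 DMSO replicate 1 or ΔUNG_2 DMSO replicate 2. Bcl2l1 had 16.9 and 13.6 FPKM in the ΔUNG DMSO libraries, 13.6 and 13.5 in ΔUNG_2 DMSO, 31.0 and 33.0 in ΔUNG ATRi and 37.4 in ΔUNG_2 ATRi. Bcl2l1, the gene of the survival protein BCL-XL, had the largest change of the 8, and its treatments did not overlap (1.21 ± 0.10 (SE), adjusted p = 3.50e-05). Bcl2l11, the death gene BIM, rose by 0.41. Of 10 secreted factors of senescent cells, 8 rose and 1 fell (median 0.54), and 4 rose without the ΔUNG_2 ATRi library. Plaur, the urokinase receptor, rose by 0.93, the osteopontin gene Spp1 by 0.92 and the gelatinase gene Mmp2 by 0.67. The membrane protease gene Mmp14 fell by 0.25.

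Interferon-stimulated genes rose in the clones, from low levels. Of 50 listed, 38 reached the level for testing; 25 of them rose and 3 fell, with a median of 0.67 (0.69 in ΔUNG and 0.63 in ΔUNG_2). The antiviral effectors gave 16 rises among 24 and the sensors and their signalling genes 7 among 9. Ifit3 had 5.84 and 5.25 FPKM in the ΔUNG DMSO libraries, 3.97 and 3.27 in ΔUNG_2 DMSO, 15.8 and 14.7 in ΔUNG ATRi and 13.5 in ΔUNG_2 ATRi. Ifit3, an inhibitor of viral translation and signalling whose promoter is shown above, was higher in all 3 ATRi libraries than in any DMSO library, by 1.54 ± 0.11 (SE), adjusted p = 1.33e-05. Ifitm3 had 58.2 and 34.9 FPKM in the ΔUNG DMSO libraries, 39.2 and 38.0 in ΔUNG_2 DMSO, 152 and 169.6 in ΔUNG ATRi and 122 in ΔUNG_2 ATRi. Ifitm3 blocks entry of enveloped viruses. Its DMSO libraries were uneven, with 1 ΔUNG library above the others, and its fold change was 1.75 ± 0.15 (SE), adjusted p = 3.84e-05. Ifit1 rose by 1.59 and Ifit3b by 1.69; reads of Ifit3 and Ifit3b can come from either of these near-identical genes, so both values are uncertain. Under DMSO Mb21d1 was at 3.96 and 3.89 FPKM in ΔUNG and at 4.12 and 4.02 in ΔUNG_2, and under ATRi at 2.44 and 2.51 in ΔUNG and at 3.45 in ΔUNG_2. Mb21d1, the gene of the DNA sensor cGAS, was lower in all 3 ATRi libraries, by 0.43 ± 0.10 (SE), adjusted p = 0.00736. Herc6 and Ifit2 were the other called falls, with -0.41 and -0.20. Without the ΔUNG_2 ATRi library 1 of the 3 falls was called; Ifit2 was also not called without any 1 of 5 other libraries, with adjusted p up to 0.123.

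Of 7 tested GTPases and regulators of the interferon-gamma response 4 rose and none fell, with a median of 0.64. Gbp3, a guanylate-binding protein gene, had 0.676 to 0.864 FPKM in the DMSO libraries and 2.27 to 2.96 in the ATRi libraries and rose by 1.25 ± 0.12 (SE), adjusted p = 9.05e-05. Irgm1, an immunity-related GTPase gene, rose by 0.84, Gbp2 by 0.64 and the transcription factor gene Irf1 by 0.50. Of 12 MHC class I genes, 7 rose (median 0.36), and 4 rose without ΔUNG DMSO replicate 2 or ΔUNG ATRi replicate 1. Tap1 had 0.617 and 0.290 FPKM in the ΔUNG DMSO libraries, 0.571 and 0.737 in ΔUNG_2 DMSO, 2.71 and 3.21 in ΔUNG ATRi and 2.44 in ΔUNG_2 ATRi. Tap1, which pumps peptides into the endoplasmic reticulum, was low under DMSO and above that range in each ATRi library, with 1.67 ± 0.18 (SE), adjusted p = 0.000121. Tapbp, which loads peptides, rose by 0.96, and the peptide trimmer gene Erap1 by 0.55. The heavy chain gene H2-D1 rose by 0.72, with reads that may be shared with other class I genes.

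Of 11 tested chemokines and cytokines, 7 rose and 2 fell, with a median of 0.63. Cxcl10 had 3.15 and 2.84 FPKM in the ΔUNG DMSO libraries, 3.48 and 2.96 in ΔUNG_2 DMSO, 18 and 18.3 in ΔUNG ATRi and 23.4 in ΔUNG_2 ATRi. Cxcl10, which attracts T cells through CXCR3, stood at 18 FPKM or more under ATRi against at most 3.48 under DMSO, and its fold change was 2.52 ± 0.09 (SE), adjusted p = 1.50e-06. Ccl5 had 7.33 and 6.67 FPKM in the ΔUNG DMSO libraries, 6.91 and 7.35 in ΔUNG_2 DMSO, 29.2 and 20.2 in ΔUNG ATRi and 34.8 in ΔUNG_2 ATRi. Ccl5, which attracts T cells and monocytes, was the less even of both between ATRi replicates, and also did not overlap (1.92 ± 0.14 (SE), adjusted p = 1.83e-05). Besides Il17b, Tgfb2 fell by 0.39, a call lost without ΔUNG DMSO replicate 1, ΔUNG DMSO replicate 2 or ΔUNG ATRi replicate 1, with adjusted p up to 0.0604. Genes of NF-kB and its feedback rose in 8 of 9 cases (median 0.48), and in 5 without ΔUNG DMSO replicate 2. Nfkb2, of the noncanonical branch, rose by 1.35, its partner gene Relb by 1.01, the inhibitor gene Nfkbia by 0.85 and Rela by 0.48. Nfkb1 fell by 0.29, a call lost without the ΔUNG_2 ATRi library (adjusted p = 0.0527). Among 5 tested immune ligands, the galectin gene Lgals9 rose by 1.69 ± 0.12 (SE), adjusted p = 1.40e-05, the NKG2D ligand gene Raet1d fell by 0.84 and Cd47, the signal against phagocytosis, fell by 0.37.

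Stress programmes moved in opposite directions. The integrated stress response, in which ATF4 and CHOP induce genes of amino acid supply, fell: 23 of 28 genes fell and 1 rose, with a median of -0.83. Of its 14 genes of amino acid supply, 13 fell (-0.89). Under DMSO Psph was at 25.4 and 23.2 FPKM in ΔUNG and at 24.3 and 23.9 in ΔUNG_2, and under ATRi at 8.61 and 8.91 in ΔUNG and at 7.09 in ΔUNG_2. Psph, the last enzyme of serine synthesis, had no overlap between treatments and was lower by 1.53 ± 0.08 (SE), adjusted p = 4.71e-06. Asns, the asparagine synthetase gene, had 176 to 187 FPKM in the DMSO libraries and 90.8 to 94.8 in the ATRi libraries and fell by 0.95. Pck2, the mitochondrial PEP carboxykinase gene, fell by 1.35. Atf3 was the exception. Atf3 had 20.1 and 15.7 FPKM in the ΔUNG DMSO libraries, 17.5 and 15.5 in ΔUNG_2 DMSO, 25.9 and 29.1 in ΔUNG ATRi and 30.6 in ΔUNG_2 ATRi. This immediate early and stress factor was higher in all 3 ATRi libraries, with 0.72 ± 0.10 (SE), adjusted p = 0.000686; without ΔUNG DMSO replicate 1 the list had 3 rises. Cytosolic tRNA synthetases, many of which ATF4 induces, fell in 15 of 21 cases (median -0.50), among them Lars (-0.78), Yars (-0.77), Nars (-0.67) and Eprs (-0.70). Farsa rose by 0.37, with adjusted p = 0.0544 without the ΔUNG_2 ATRi library.

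Chaperones and degradation factors of the endoplasmic reticulum rose in 19 of 21 cases and none fell, with a median of 0.77 that was close in both clones (0.76 and 0.79). Hspa5 had 187 and 214 FPKM in the ΔUNG DMSO libraries, 173 and 169 in ΔUNG_2 DMSO, 481 and 488 in ΔUNG ATRi and 438 in ΔUNG_2 ATRi. Hspa5, the BiP chaperone whose promoter is shown above, was higher in each ATRi library than in any DMSO library, with 1.31 ± 0.06 (SE), adjusted p = 4.71e-06. Sdf2l1, a partner of BiP, rose by 1.48, the secreted chaperone gene Manf by 1.21 and Creld2 by 1.16. Of 34 genes of cholesterol and fatty acid synthesis 21 rose and 2 fell (median 0.35). The rises were 18 of 24 cholesterol genes (0.51) and 3 of 10 fatty acid genes (0.09). Hsd17b7 had 2.68 and 2.65 FPKM in the ΔUNG DMSO libraries, 2.16 and 2.68 in ΔUNG_2 DMSO, 10.7 and 12.6 in ΔUNG ATRi and 10.2 in ΔUNG_2 ATRi. Hsd17b7, an enzyme of the later cholesterol pathway, was higher in every ATRi library, by 1.92 ± 0.09 (SE), adjusted p = 4.71e-06. Insig1, the sterol-sensing brake of SREBP, rose by 0.87, the fatty acid synthase gene Fasn by 0.77 and Msmo1 by 0.71. The desaturase gene Fads1 fell by 0.45 and the mevalonate pathway gene Pmvk by 0.42.

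NRF2 targets gave 10 rises and 2 falls among 18, with a median of 0.24. Srxn1 had 19.0 and 18.4 FPKM in the ΔUNG DMSO libraries, 15.6 and 16.2 in ΔUNG_2 DMSO, 56.7 and 64.3 in ΔUNG ATRi and 58.5 in ΔUNG_2 ATRi. Srxn1, the sulfiredoxin gene, separated the treatments without overlap (1.74 ± 0.07 (SE), adjusted p = 2.27e-06). The pentose phosphate genes G6pdx and Pgd rose by 0.84 and 0.78, and Gclm, of glutathione synthesis, by 0.83. Slc7a11, the cystine importer, which ATF4 also induces, fell by 0.92. Gsta4 was called lower (-0.59), a call lost without any ATRi library or without ΔUNG DMSO replicate 1 or ΔUNG_2 DMSO replicate 2, with adjusted p up to 0.121.

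Genes of hypoxia and glycolysis fell. Of 14 genes of the hypoxia response 11 fell and none rose, with a median of -0.98. Of 19 glycolysis genes 12 fell and 3 rose, with a median of -0.38. Bnip3 had 62.4 and 55.0 FPKM in the ΔUNG DMSO libraries, 45.0 and 42.3 in ΔUNG_2 DMSO, 16 and 20.5 in ΔUNG ATRi and 9.44 in ΔUNG_2 ATRi. Bnip3, a mitophagy receptor that HIF induces, was lowest in the ΔUNG_2 ATRi library and had no overlap between treatments, with -1.86 ± 0.12 (SE), adjusted p = 1.08e-05. Higd1a, a mitochondrial gene of the hypoxia response, had 21.6 to 28.7 FPKM in the DMSO libraries and 11.3 to 11.4 in the ATRi libraries and fell by 1.16. Named after its value was seen, Vegfa, the vascular growth factor, fell by 0.98, while Hif1a itself had -0.13 (adjusted p = 0.101). The hexokinase gene Hk1 rose by 0.68 ± 0.07 (SE), adjusted p = 0.000145. The enolase genes Eno1 and Eno2 were called higher by 0.23 and 0.37; each call was lost without 4 of the 7 libraries, both without ΔUNG_2 DMSO replicate 2 and without the ΔUNG_2 ATRi library, with adjusted p up to 0.111 and 0.181.

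Melanocyte genes showed no common direction. Of 24 tested, 10 rose and 5 fell, with a median of 0.04 that was -0.02 after scaling to the same FPKM sum over genes of at least 200 bases; 3 fell without the ΔUNG_2 ATRi library. Kit had 7.93 and 8.30 FPKM in the ΔUNG DMSO libraries, 10.2 and 9.62 in ΔUNG_2 DMSO, 3.16 and 2.70 in ΔUNG ATRi and 3.62 in ΔUNG_2 ATRi. Kit, the receptor of stem cell factor, was lower in all 3 ATRi libraries, by 1.33 ± 0.08 (SE), adjusted p = 7.28e-06. Met, the receptor of hepatocyte growth factor, rose by 1.15. Of the pigment genes, the melanosome adaptor Mlph rose by 0.68 and the transporter Slc45a2 by 0.63. Pax3, a factor upstream of Mitf, fell by 0.39 and Rab27a, which tethers melanosomes, by 0.39. Of 30 genes of the lysosome and its proton pump 10 rose and 3 fell (median 0.07). Ctsb, the cathepsin B gene, had 92.9 to 125 FPKM in the DMSO libraries and 235 to 255 in the ATRi libraries and rose by 1.20 ± 0.08 (SE), adjusted p = 1.03e-05. The autophagy adaptor gene Sqstm1 rose by 1.01 and Ctsd by 0.63, while the pump subunit genes Atp6v1g1 and Atp6v1d fell by 0.40 and 0.25. Cd68 had 2.11 and 3.04 FPKM in the ΔUNG DMSO libraries, 2.72 and 2.91 in ΔUNG_2 DMSO, 11.8 and 11.9 in ΔUNG ATRi and 8.70 in ΔUNG_2 ATRi. Cd68 is a lysosomal membrane protein gene used as a macrophage marker, and it was higher in every ATRi library (1.8 ± 0.14 (SE), adjusted p = 2.53e-05). The other leukocyte markers of the 12 were not among the 14528 listed genes, and the part of such cells in these results was not tested.

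Housekeeping genes of the ribosome and the respiratory chain stayed near the median of all genes. Of 39 cytosolic ribosomal protein genes 2 rose and 4 fell (median 0.03, range -0.32 to 0.26), and of 27 respiratory genes 3 rose and 1 fell (median -0.01, range -0.29 to 0.25). The ribosomal median was -0.02 after scaling to the same FPKM sum, and the respiratory median 0.01 after scaling by median ratios. With 1 library left out, 0 to 6 ribosomal genes rose and 1 to 5 fell, and 1 to 7 respiratory genes rose; most rose without ΔUNG ATRi replicate 2. Ndufs1, a core subunit of complex I, fell by 0.29, a call that no omission ended.

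**Figure D3:**
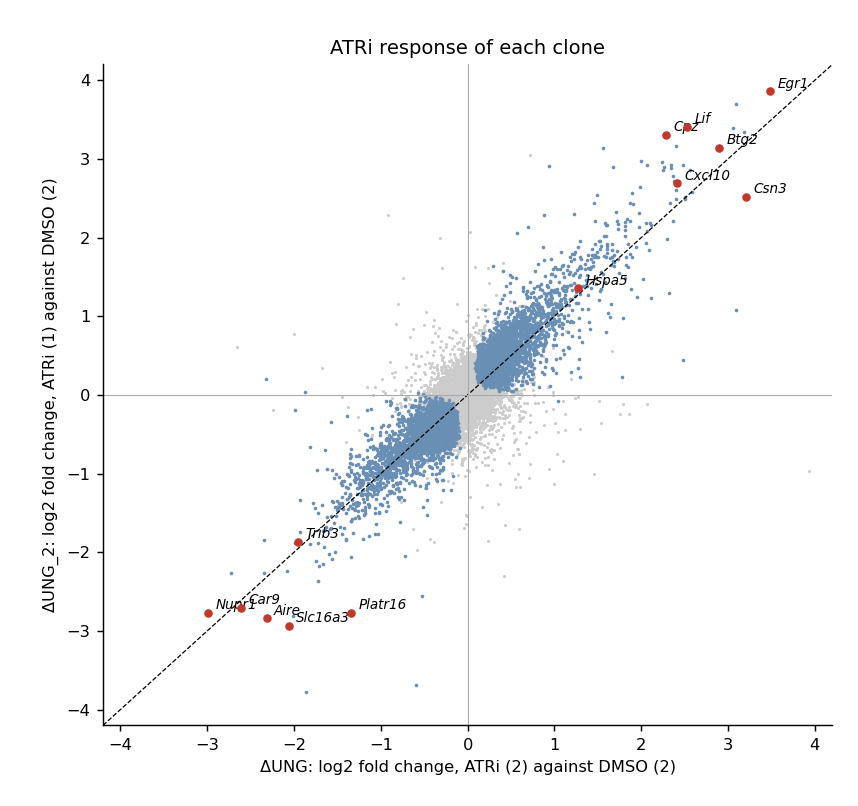
Log2 fold change of 11311 tested genes under ATRi in ΔUNG (horizontal, 2 ATRi against 2 DMSO libraries) and ΔUNG_2 (vertical, 1 ATRi against 2 DMSO libraries), called genes in blue and some named genes in red; Mir1957a is not drawn. Called genes lie along the dashed line of equal change, and Platr16 and Slc16a3 lie below it.

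The sign of the fold change was the same in both clones for 8853 of all 11312 tested genes (78.3%). It was the same for 5155 of the 5160 called genes, but these were called on the response over both clones, which favours genes of equal sign. Fitted separately, ΔUNG had 1763 higher and 2095 lower genes, and ΔUNG_2, whose single ATRi library was given the spread of the other groups, 1952 and 1847. Across all tested genes, which are not independent replicates, the responses of the clones, which share no library, had r = 0.803. The largest rises were 3.49 and 3.86 for Egr1 in ΔUNG and ΔUNG_2, 2.53 and 3.40 for Lif, and 3.21 and 2.51 for Csn3. Among the falls, Slc16a3 had -2.06 and -2.94, Platr16 -1.34 and -2.77, and Nupr1 -2.99 and -2.77. Whether the response differed between the clones was tested as an interaction. Of 11312 genes 1 passed (0.00884%), Mir1957a, a miRNA gene of 66 bases, and 1246 had an unadjusted p under 0.05. It had 0 fragments in both ΔUNG DMSO libraries and in ΔUNG_2 ATRi, 8 and 8 in ΔUNG ATRi and 12 and 6 in ΔUNG_2 DMSO. A value of 0 allows up to 3 fragments, so this call rests on few fragments, and it was lost by limma-voom and without the filter on low values. None of the differences between the clones for the genes above passed, which does not show that they responded alike.

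Set beside the Cas9 control, the clones' responses had r = 0.814 across genes, with no library in common. By the test of the difference, 9 of 11312 genes (0.0796%) differed, 3 with a larger response in the clones (0.0265%) and 6 with a smaller or more negative one (0.053%); 1514 had an unadjusted p under 0.05. Bst2, the interferon-induced tetherin, had 22.6 to 31.1 FPKM in the DMSO libraries and 23.5 to 40.7 in the ATRi libraries of the clones, against 73.6 and 68.1 FPKM under DMSO and 196 and 214 under ATRi in the Cas9 control. The ΔUNG_2 ATRi library, at 23.5 FPKM, was within the DMSO range, and both ΔUNG ATRi libraries were above it. The response of the clones was lower than that of the control by 1.25 ± 0.16 (SE), adjusted p = 0.0330. Slfn9 had 7.85 and 8.44 FPKM in the ΔUNG DMSO libraries, 7.85 and 8.19 in ΔUNG_2 DMSO, 3.38 and 3.24 in ΔUNG ATRi and 2.52 in ΔUNG_2 ATRi. Slfn9, a gene of the Schlafen family, had 9.37 and 9.68 FPKM under DMSO and 9.56 and 8.14 under ATRi in the Cas9 control. It fell in all 3 ATRi libraries of the clones and had a log2 fold change of -0.10 in the control, with a difference of -1.23 ± 0.12 (SE), adjusted p = 0.020. Rnf213, a large ubiquitin ligase gene that interferon induces, had 5.90 to 6.73 FPKM in the DMSO libraries and 6.43 to 9.11 in the ATRi libraries of the clones and 14.1 and 12.9 FPKM under DMSO and 33.5 and 30.5 under ATRi in the Cas9 control, with a difference of -0.95 ± 0.11 (SE), adjusted p = 0.0231. Hap1, the gene of huntingtin-associated protein, differed by -1.19 ± 0.12 (SE), adjusted p = 0.0201, Mdfi, an inhibitor of myogenic factors, by -1.09 ± 0.14 (SE), adjusted p = 0.0330, and Art3 by -0.98 ± 0.13 (SE), adjusted p = 0.0330.

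Under DMSO Dusp10 was at 1.44 and 1.64 FPKM in ΔUNG and at 1.32 and 1.26 in ΔUNG_2, and under ATRi at 4.95 and 4.93 in ΔUNG and at 4.95 in ΔUNG_2. In the control, Dusp10 had 5.40 and 5.24 FPKM under DMSO and 7.0 and 7.41 under ATRi, and the clones' response exceeded the control's by 1.11 ± 0.12 (SE), adjusted p = 0.0210. Dcxr had 22.1 and 20.8 FPKM under DMSO and 74.3 and 66.6 under ATRi in the Cas9 control and differed by 0.81 ± 0.10 (SE), adjusted p = 0.0231; Mcam, the melanoma cell adhesion molecule, had 75.2 and 79.2 FPKM under DMSO and 165 and 162 under ATRi in the Cas9 control against 54.1 to 57.5 FPKM in the DMSO libraries and 163 to 197 in the ATRi libraries of the clones and differed by 0.61 ± 0.07 (SE), adjusted p = 0.0231. These 9 calls rest on few libraries: none was called without ΔUNG ATRi replicate 1, ΔUNG ATRi replicate 2, ΔUNG_2 DMSO replicate 1 or ΔUNG_2 DMSO replicate 2, and 30 genes were called without ΔUNG DMSO replicate 1. Limma-voom on fragments called 122. Without Cas9 control DMSO replicate 1 or 2, 6 genes were called in each case, of which 2 were among the 9. Without the ΔUNG_2 ATRi library the response of ΔUNG alone was set against the control, and 3 genes were called, all with a smaller or more negative response; Hap1 and Slfn9 were among them, and Bst2 was not (-0.98 ± 0.18 (SE), adjusted p = 0.0855).

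**Figure D4:**
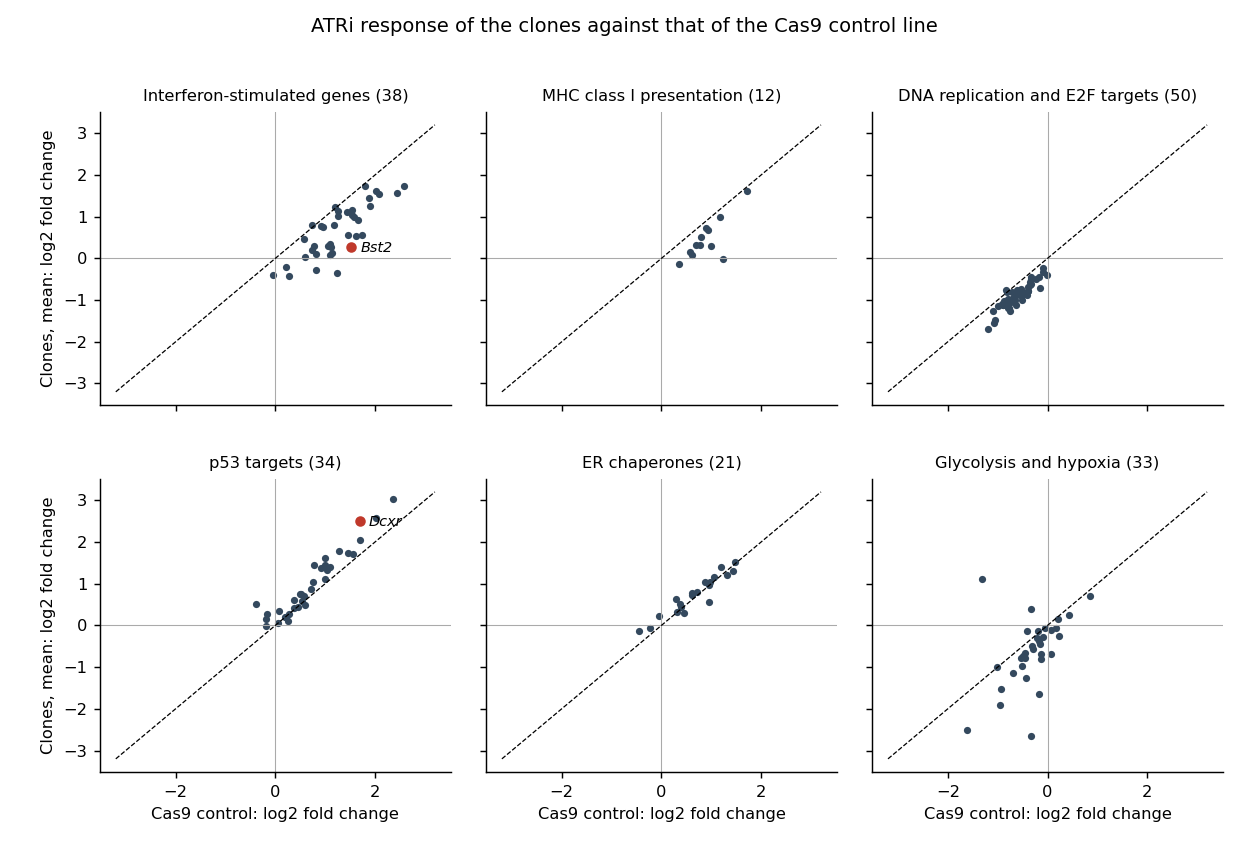
Log2 fold change under ATRi in the Cas9 control (horizontal) and as the mean of both clones (vertical) for the tested members of 6 lists, with the dashed line of equal change; red points differed by the test of the difference. Interferon and MHC class I genes lie mostly below the line, replication genes below it on the negative side, and ER chaperones near it.

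By lists, the same comparison gave few calls. Of 38 interferon-stimulated genes, 36 had a smaller fold change in the clones than in the control and 1, Bst2, passed the test; their medians were 0.67 and 1.22. Several of them also started lower in the clones. Under DMSO the mean of Ifit3 was 5.55 FPKM in ΔUNG, 3.62 in ΔUNG_2 and 12.6 in the control. Ifit1 had 5.95, 4.33 and 18.6, while Mb21d1 did not start lower, with 3.92, 4.07 and 3.67. The part of these levels in the smaller fold changes was not tested. All 7 interferon-gamma genes and all 12 MHC class I genes were below the control, with medians of 0.64 against 1.33 and 0.36 against 0.84, and none passed. The members named above all had lower mean DMSO levels in both clones than in the control. Tap1 had 0.45 FPKM in ΔUNG, 0.65 in ΔUNG_2 and 1.34 in the control, and Gbp3 had 0.81, 0.74 and 3.72. At such low levels the log2(FPKM + 0.5) scale understates changes, more so in the clones, and the part of the scale was not tested. Over all 11312 genes, 5790 were below the control. H2-K1, a class I heavy chain gene named after its values were seen and with reads that other class I genes may share, had -0.03 in the clones and 1.24 in the control, a difference of -1.26 ± 0.27 (SE), adjusted p = 0.111. Cxcl10 (2.52 against 2.72), Ccl5 (1.92 against 1.77) and Ifitm3 (1.75 against 1.81) had close values in both, and none of their differences passed. Other named genes lay further apart. Mean Ifit3 went from 5.55 FPKM under DMSO to 15.3 under ATRi in ΔUNG and from 12.6 to 70.1 in the control. Irgm1 went from 5.4 to 9.94 in ΔUNG and from 8.47 to 31.2 in the control. The differences of Ifit3 and Irgm1 did not pass either. Replication genes had medians of -0.87 in the clones and -0.62 in the control, with 49 of 50 lower in the clones, mitotic genes -1.04 and -0.80, and checkpoint genes -0.78 and -0.42, with no call among them. For p53 targets the medians were 0.73 and 0.58, with Dcxr the 1 call. Of the 34, 30 were higher in the clones, with a median difference of 0.27. For the hypoxia response the medians were -0.98 and -0.43, with no call. Car9 had -2.65 in the clones and -0.33 in the control, a difference of -2.33 ± 0.34 (SE), adjusted p = 0.0516. Its mean level under DMSO was 14.9 FPKM in ΔUNG, 9.34 in ΔUNG_2 and 2.70 in the control. Under ATRi it was 1.98 in ΔUNG and 1.94 in the control. The control DMSO replicates were uneven for Car9 (2.70 ± 1.33 FPKM) and Bnip3 (26.6 ± 16.2, SD, n = 2). The part of the DMSO level in these differences was not tested. ER chaperones had 0.77 and 0.72, and the integrated stress response -0.83 and -0.92.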

How the data were processed

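RNA of cultured cells was sequenced by Novogene, per the labels' protocols. FPKM were deposited by the authors for each library. HISAT2 is named in the submitters' processing notes; its version, counter, annotation and build are not stated in the sources used here. The deposited read table gives clean read counts and the percent of bases at Q30 and of G and C, used only to describe the libraries; its row of 1 library outside these samples was not used. FPKM multiplied by the deposited gene length gave whole fragments, within 0.01 of a step, for 100% of values. Fragments were used only for depth and for limma-voom. For a gene of 1 kb, a value of 0 allows 3 fragments, or 0.128 to 0.176 FPKM, for counting error only.

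Values of log2(FPKM + 0.5) were tested in R 4.3.3 with limma 3.58.1, two-sided, with an intensity trend, and Benjamini-Hochberg adjustment over all 11312 genes at 0.05. The response of the clones used 7 libraries with the clone as a block, which left 4 residual degrees of freedom. The difference between the clones used group means of the same libraries, and the difference from the Cas9 control those of all 11. Fold changes on this scale understate the change of genes with low values.

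Named were Ung and Atr; the 10 largest rises and 10 largest falls at most among called genes whose mean reached 1 FPKM and whose treatments did not overlap, leaving out predicted genes, pseudogenes and genes under 200 bases; up to 4 members of each list with the smallest adjusted p and members against its majority; and up to 5 called differences each way between clones or from the control. Some of these are given by their counts only or are not reported here. A list's value is the median of its tested members. The members and lists were chosen with earlier results of these data known. Alternatives were other pseudocounts (0.1 and 1), omitting the filter or raising it to 2 FPKM, scaling by median ratios or to the same FPKM sum, omitting the trend, a replicate block, no clone term, equal weight for each clone, all 11 libraries, a fold of 1.5 and leaving out each library. Limma-voom, scaling to the FPKM sum over genes of at least 200 bases and ΔUNG alone against the control were chosen after seeing the data. The procedure was tested on simulated data. Promoters came from RefSeq, and matplotlib 3.10.9 (Python 3.11.15) drew the figures.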

Additional observations from a re-analysis of the deposited data

Results flagged for a closer look

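Each of the following genes responded to ATRi differently in 2 sets of libraries by the test of the difference itself (limma). Values are differences of log2 fold changes with their SE.

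Between the clones, Mir1957a had -7.39 ± 0.33 for ΔUNG_2 minus ΔUNG (adjusted p = 0.000382). With 0 fragments in 3 of the 7 libraries and at most 12 in any, this value depends on the pseudocount and is no bound. A value of 0 in this gene of 66 bases allows 1.95 to 2.67 FPKM, over the libraries of both clones. Limma-voom on the fragments and the fit without a filter on low values did not call it.

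Between the clones and the Cas9 control, interferon-induced Bst2 had -1.25 ± 0.16 and Rnf213 -0.95 ± 0.11. The other smaller or more negative responses in the clones were -1.23 ± 0.12 for Slfn9, -1.19 ± 0.12 for Hap1, -1.09 ± 0.14 for Mdfi and -0.98 ± 0.13 for Art3. Larger responses in the clones were 1.11 ± 0.12 for Dusp10, 0.81 ± 0.10 for Dcxr and 0.61 ± 0.07 for Mcam. Adjusted p was 0.02 to 0.033. None of the 9 was called without either ΔUNG ATRi library or either ΔUNG_2 DMSO library. With 1 library left out their directions held, with Bst2 at -1.36 to -0.98 and Dusp10 at 1.01 to 1.14. Both interferon genes started from a higher DMSO level in the control than in the clones. For Bst2 it was 70.9 ± 3.85 FPKM (SD, n = 2) against 26.9 ± 5.95 in ΔUNG and 23.4 ± 0.334 in ΔUNG_2. Hap1, Mdfi and Art3 started from a lower DMSO level in the control. For Hap1 it was 17.6 FPKM against 31.6 in ΔUNG and 37.0 in ΔUNG_2. The part of these levels in the differences was not tested.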

How the results depend on the processing

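With 1 ATRi library for ΔUNG_2 and 2 per other group, few residual degrees of freedom were left, and the clone, its ATRi library and the knockout cannot be told apart in ΔUNG_2. Of 154 named genes called in the clones, 129 were called under each setting run other than the minimum fold of 1.5, and 25 lost the call at least once. Most of them were named for a small adjusted p or a large change in these libraries, so this share does not stand for all calls.

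The 5160 calls of the response ranged from 4476 (same FPKM sum) to 5635 (limma-voom, 2468 higher and 3167 lower) over the settings other than the minimum fold, which gave 590, 287 higher and 303 lower. Without 1 library in turn, 3845 to 5157 genes were called, 1737 to 2556 higher and 2108 to 2601 lower. No scaling moved the median of all genes by over 0.1; it was -0.07 after scaling to the same sum over genes of at least 200 bases, which gave 2042 higher and 3262 lower. Equal replicate numbers did not pair libraries (correlations of deviations 0.04, -0.02 and -0.001), so the replicate block is given only here: it called 5023 genes in the response (2357 higher, 2666 lower), 1 between the clones and 12 against the control (4 higher, 8 lower).

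Between the clones, where limma called 1 gene, no filter on low values gave 0 calls (0 lower; 1680 genes at an unadjusted p under 0.05; limma-voom called 2, both lower) and the same FPKM sum gave 20 (9 higher, 11 lower). Leaving out 1 library gave 1 to 2 calls, 0 to 1 higher and 1 to 2 lower; without the ΔUNG_2 ATRi library this test has no ΔUNG_2 response and was not run.

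Against the Cas9 control, where 9 were called (3 higher, 6 lower), a pseudocount of 1 gave 34 (9 and 25), omitting the filter 13 (6 and 7), raising it to 2 FPKM 22 (7 and 15), the same FPKM sum 15 (5 and 10), median ratios 16 (6 and 10), no trend 2 (1 and 1), limma-voom 122 (53 and 69) and the sum over genes of at least 200 bases 17 (6 and 11). Leaving out 1 library gave 0 to 30, 0 to 18 higher and 0 to 12 lower; where limma called 0, 1215 to 1523 genes had an unadjusted p under 0.05. The causes were not tested.

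Among named genes without a call in the clones, Ung ranged from -0.248 to 0.047 with 1 library left out, and Art3 from -0.031 to 0.115. It was positive for Ung without ΔUNG DMSO replicate 1 (0.042) or ΔUNG ATRi replicate 2 (0.047). The median of the immune ligands was -0.37 at a filter of 2 FPKM.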
